A study of Mus musculus with 15 samples.

Results

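The genes described here are the 49 mouse genes that license replication origins, fire them and copy DNA at the fork, taken by symbol from the 53380 features of the deposited count tables. All 49 were found and all 49 passed the filter on low counts, with 653 to 46584 counts in a library. By role they are 6 MCM helicase subunits, 6 subunits of the origin recognition complex, 3 genes of MCM loading and its inhibition, 8 of helicase activation, 9 polymerase and primase subunits, 6 of the sliding clamp and its loader, 3 of single-strand DNA binding, 2 of Okazaki fragment joining, 4 of fork protection and 2 of chromatin assembly.

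Polyadenylated RNA was sequenced from cultured murine T-ALL (T cell acute lymphoblastic leukemia) cells with the EμSRα-tTA and tet-O-MYC transgenes. Here a tetracycline transactivator expressed in lymphoid cells drives human MYC until doxycycline is added. The MYC on group was mock treated (0 h), and the MYC off groups were exposed to doxycycline for 2, 4, 8 or 24 h. Each time has 3 libraries, 15 in all, and every group carries the same transgenes. Whether the libraries of one time came from separate cultures is not in the labels, so the p-values measure the spread between these libraries only.

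In G1, the origin recognition complex and the loading factors Cdc6 and Cdt1 place the MCM helicase on DNA as an inactive ring. At the start of S phase the kinase Cdc7, with its activator Dbf4, and cyclin-dependent kinases recruit Cdc45 and the GINS complex, which turn the ring into an active helicase. Primase and polymerase alpha start each strand, polymerases delta and epsilon extend it on the clamp PCNA, and Fen1 and Lig1 join the lagging strand pieces. Many of these genes are textbook targets of E2F factors and several have been described as targets of MYC, whose direct sites often hold the letters CACGTG.

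The transgene fell in all MYC off libraries. The 0 h libraries held 2079, 2017 and 1975 CPM (counts scaled to a common library size, with TMM factors) and the 2 h libraries 24.0, 27.1 and 23.4 CPM (log2 fold change -6.35 ± 0.11 SE, adjusted p = 9.5e-15). At 24 h it stood at 3.40, 2.94 and 3.54 CPM. Library totals were 25852711 to 27102318 counts. Markers of T cells summed to 4983 to 10260 CPM and all 10 were detected, markers of B cells summed to at most 0.37 CPM, erythroid markers to at most 0.0792 CPM, myeloid markers to 9.22 to 31.9 CPM with Lyz2 at 0 in every library, and stromal markers to 56.5 to 142.5 CPM, mostly Pecam1, with Col3a1 at 0. The T cell, myeloid and stromal sums were all highest at 24 h (T cells 9674 to 10260 CPM, against 5859 to 5943 at 0 h), and their part in the results was not tested. Within the myeloid sum, Itgam went from a mean of 2.58 CPM at 0 h to 20.6 at 24 h, and Csf1r stood at 8.15 and 5.82. One library stood apart from its group. Replicate 3 at 24 h differed from replicates 1 and 2 with a chi-square per degree of freedom of 84.1 and 92.7, against 2.86 to 17.2 for the other 13 pairs of replicates. In it 37 of the 49 replication genes lay below both other 24 h libraries and 12 above both. The shares of all tested genes on each side are not given here. The difference was -0.72 (log2) for Rpa3, whose transcript model has 1136 bases, and 0.82 for Pole, with 11160 bases, and across the 49 genes it ran with transcript length (Spearman 0.49; 0.35 across the 14485 genes tested; a description across genes). Values at 24 h are therefore given with and without that library where it matters. Levels are relative to all RNA of a library, and fewer cells expressing a gene cannot be told apart from less RNA per cell.

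Promoter sequence is shown for the 5 genes with 2 or more matches to E2F-type letters and for Clspn, the gene with 1 match whose 24 h change was largest, because these letters occurred in a larger share of the group than of all genes. RefSeq windows of 300 bases around the start (GRCm38.p6) were given for 40 of the 49 genes and searched on both strands for the E2F-type letters TTTCCCGC, TTTGGCGC and TTTCGCGC and for CACGTG; matches could overlap. An E2F-type match was held by 16 of the 40 genes (40%), by 2.12% of all 27025 genes with a window and by 4.19% of the 9557 that were also tested. CACGTG was held by 7 of the 40 (17.5%), by 8.09% of all genes and by 11.7% of those tested, and Lig1 alone held both, in windows of different starts. The upstream stretches follow 5′ to 3′ along the gene, ending at the base before the start, with matches in capitals.
Mcm6, chr1:128359706-128359885, minus strand: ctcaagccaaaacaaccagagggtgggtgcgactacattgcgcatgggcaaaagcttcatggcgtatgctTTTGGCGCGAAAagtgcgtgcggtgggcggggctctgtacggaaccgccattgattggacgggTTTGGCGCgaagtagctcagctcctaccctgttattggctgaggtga
Mcm5, chr8:75109329-75109508, plus strand: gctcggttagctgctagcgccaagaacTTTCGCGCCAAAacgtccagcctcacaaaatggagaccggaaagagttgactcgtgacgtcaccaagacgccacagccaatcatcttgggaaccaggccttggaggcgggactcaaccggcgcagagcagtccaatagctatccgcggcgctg
Mcm7, chr5:138171884-138172063, minus strand: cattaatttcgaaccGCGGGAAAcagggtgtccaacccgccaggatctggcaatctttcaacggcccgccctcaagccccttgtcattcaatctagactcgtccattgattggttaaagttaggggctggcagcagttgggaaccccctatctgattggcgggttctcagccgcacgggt
Mcm6 held 3 matches, a pair of them overlapping, Mcm5 an overlapping pair, and Mcm7 1 match before the start and 1 after it. Matches near or after the start are shown in 30 bases each for Mcm7, Rfc3, Mcm3 and Clspn.
Mcm7, chr5:138171849-138171878, minus strand: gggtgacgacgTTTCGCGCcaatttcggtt
Rfc3, chr5:151651195-151651224, minus strand: gcacgcTTTCGCGCtcGCGGGAAAactcta
Mcm3, chr1:20820265-20820294, minus strand: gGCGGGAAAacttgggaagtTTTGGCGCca
Clspn, chr4:126556990-126557019, plus strand: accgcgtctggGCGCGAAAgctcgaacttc
Genes with such a match moved in both directions. At 24 h, 6 of the 16 with an E2F-type match were called higher and 5 lower (median log2 fold change 0.09), and 9 and 7 of the 24 without one (median 0.10). Of the 7 with CACGTG, 2 were called higher and 1 lower at 24 h (median 0.10), and of the 33 without it 13 and 11 (median 0.04). Of the genes printed, Mcm6 fell from 4 h on, Rfc3 and Clspn were higher at 24 h, and Mcm5 was higher at 4 h and not called at 24 h.

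More of the replication genes were called higher than lower at 2, 4 and 8 h, and the 2 counts were close at 24 h. Genes are called at an edgeR adjusted p under 0.01 over all 14485 genes tested, and the 4 comparisons with 0 h share the same 3 control libraries. At 2 h, 13 of 49 were called higher and 3 lower, against 6.6% and 8.59% of all tested genes. At 4 h the counts were 22 higher and 6 lower (44.9% and 12.2% of the group), against 18.1% and 19.9% of all genes. At 8 h they were 17 and 8 (34.7% and 16.3%), against 25.3% and 25.1%. At 24 h they were 16 and 13 (32.7% and 26.5%), against 30.7% and 28.1%, so that by then the group's shares were near those of all genes. The median log2 fold change of the 49 was 0.14, 0.25, 0.10 and 0.09 in time order, beside 0.01, 0.08, 0.09 and 0.07 for all genes. Over the 5 times together, 43 of the 49 changed, against 74.2% of all genes.

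**Figure D1:**
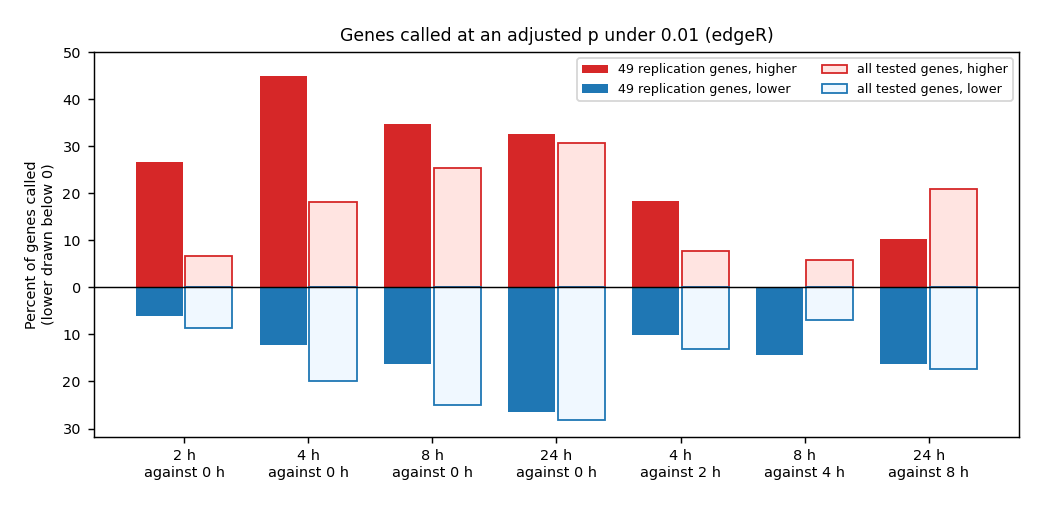
Percent of genes called at an edgeR adjusted p under 0.01 in each comparison of time points, with higher calls above 0 and lower calls below it, for the 49 replication genes (solid bars) and all 14485 tested genes (pale bars). The solid red bar exceeds the pale one most clearly at 2 h and 4 h (44.9% against 18.1% at 4 h), and the bars are close at 24 h.

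The split depended on how libraries were scaled. Scaling by library totals moved the median of all genes at 24 h from 0.07 to 0.35 (log2), and the 24 h counts of replication genes were then 29 higher and 7 lower, with upper-quartile factors 24 and 9. The median of the 49 moved with it, to 0.37 by library totals. With upper-quartile factors the 24 h medians were 0.22 for all genes and 0.23 for the 49. At 2 h the counts were 17 and 1 by library totals. The shares of all tested genes called under alternative settings are not given here or below, so counts under them only describe the genes counted. Without replicate 3 at 24 h there were 22 higher and 3 lower calls at 2 h, 32 higher and 9 lower at 4 h, 20 higher and 12 lower at 8 h, and 19 higher and 13 lower at 24 h. At 2 h, leaving out any 0 h or 2 h library gave 6 to 8 higher and 0 to 1 lower. Calls that held under all 25 alternatives numbered 6 higher and 0 lower for 2 h, 16 higher and 5 lower for 4 h, 11 higher and 7 lower for 8 h, and 7 higher and 7 lower for 24 h. How many calls of all tested genes held in this way is not given, so these numbers also only describe the 49. The 24 h set was Cdc45, Gins3, Cdc7, Prim1, Pcna, Rfc3 and Clspn on the higher side and Mcm6, Orc1, Orc2, Mcm10, Pola2, Pold1 and Pold2 on the lower. The authors' length-corrected levels (TPM) were not among the 25 alternatives.

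Calls against 0 h seldom went both ways in the same gene. The shares of all tested genes in the classes that follow are not given here, so these counts only describe the 49. The classes rest on calls alone: Cdt1, called only lower, stood above 0 h at 2 h without passing. Against 0 h, 25 were called only higher at 1 or more times, 13 only lower, 10 at no time, and Rfc2 higher at 4 h (a call lost under 15 of the 25 alternatives) and lower at 24 h (a call lost by library totals). Orc6, Cdc6, Cdc45, Gins3 and Lig1 were called higher at all 4 times, and Orc2, Pola2 and Pold2 lower at all 4. Of these, only Cdc45 and Gins3 held under all 25 alternatives at every time, and the 2 h calls of Orc2, Pola2 and Pold2 did not. The mean level peaked at 4 h in 19 of the 49, at 2 h in 14, at 0 h in 6, at 24 h in 6 and at 8 h in 4. It was lowest at 0 h in 24 genes and at 24 h in 15. The shares of all tested genes for these times are not given here either.

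**Figure D2:**
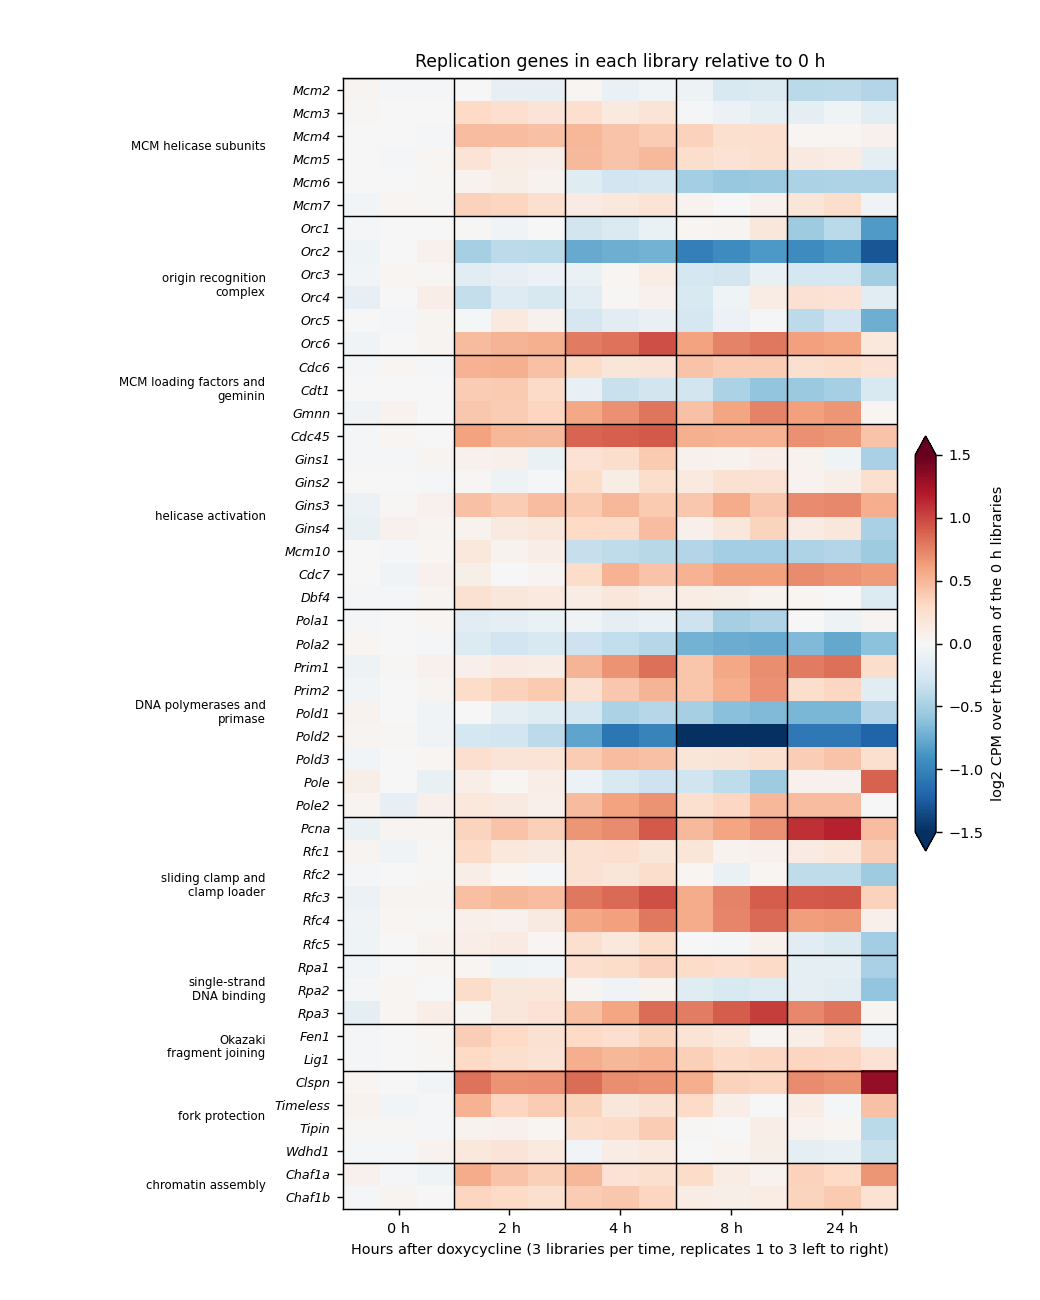
Log2 of the CPM in each library over the mean of the 0 h libraries, for the 49 genes in rows grouped by role and the 15 libraries in columns by time. Pold2, Orc2 and Pola2 are blue at every time after 0 h, Orc6, Cdc45 and Rfc3 red, and the last column, replicate 3 at 24 h, differs from its 2 neighbours in rows such as Pole, Clspn and Rpa3.

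The 6 subunits of the MCM ring, which unwinds DNA ahead of the polymerases, did not move together. Mcm6 had the highest level of the 6 on a length-corrected scale at 0 h, 584 ± 10.1 TPM (SD, n = 3), and was the one with the clearest fall. The 0 h libraries stood at 1031, 1033 and 1053 CPM, the 2 h libraries at 1081, 1105 and 1081, the 4 h libraries at 918, 851 and 869.9, the 8 h libraries at 728, 702 and 706 and the 24 h libraries at 746, 752 and 754. The 0 h and 8 h libraries lay far apart (log2 fold change -0.54 ± 0.05 SE, adjusted p = 4.25e-07), and Mcm6 also fell between 4 h and 8 h (log2 fold change -0.30 ± 0.05). Its 4 h call against 0 h was lost with upper-quartile factors, with no low-count filter and without replicate 3 of 0 h. Mcm4 moved the other way early. Its level was 359.8, 359 and 355 CPM in the 0 h libraries and 494, 494 and 486 CPM in the 2 h libraries (log2 fold change 0.46 ± 0.05 SE, adjusted p = 1.94e-05), stayed called at 8 h, and was at 364, 364 and 374 CPM at 24 h (log2 fold change 0.04 ± 0.05 SE, adjusted p = 0.527).

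Mcm5 was highest at 4 h, at 685, 659 and 685 CPM against 493, 478 and 498 at 0 h (log2 fold change 0.47 ± 0.07 SE, adjusted p = 5.65e-05). Against 0 h, Mcm3 and Mcm7 were called higher at 2 h only (log2 fold changes 0.25 ± 0.06 and 0.31 ± 0.07), calls that were lost when any 0 h or 2 h library was left out. Mcm2 fell at 24 h (log2 fold change -0.41 ± 0.06 SE, adjusted p = 3.57e-05), a call lost by library totals. As a share of the summed TPM of the 6 subunits, Mcm6 made up 27.6% ± 0.270 at 0 h and 20.02% ± 0.169 at 8 h, while Mcm5 went from 15.2% ± 0.253 to 19.0% ± 0.269 and Mcm4 from 12.4% ± 0.132 to 15.9% ± 0.196. These shares do not depend on the scaling of libraries, and for all 3 genes the 0 h and 8 h libraries did not overlap. For Mcm7, 321 exonic bases lie opposite Ap4m1, which was higher from 4 h on. Shared exonic bases here and below are those of GENCODE M21 gene models, which can differ from the models counted.

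In the origin recognition complex, which marks origins on DNA, Orc2 and Orc6 went in opposite directions. Orc2 (chr1:58462771-58505109, GRCm38) stood at 210.2, 219.6 and 231 CPM in the 0 h libraries, 156, 168 and 166 in the 2 h ones, 129.9, 132 and 134 in the 4 h ones, 108, 115 and 121 in the 8 h ones and 115, 120.3 and 90.8 in the 24 h ones. No later library reached the lowest 0 h library, and at 24 h the level was 49.3% of 0 h (log2 fold change -1.02 ± 0.09 SE, adjusted p = 4.63e-08; -0.90 without replicate 3). Of its exonic bases, 1150 are shared with Nif3l1 on the other strand, and Nif3l1 had log2 fold changes of -0.42, -0.80, -1.09 and -1.08 at 2, 4, 8 and 24 h; with the strand setting of the counting not given in the sources used here, reads from the shared bases cannot be assigned. Orc6, the smallest subunit, stood at 81.6, 84.8 and 86.9 CPM in the 0 h libraries and 145, 148 and 165 in the 4 h libraries (log2 fold change 0.85 ± 0.10 SE, adjusted p = 3.44e-06), and its 24 h libraries were at 129.8, 127 and 94.5 CPM, all above 0 h.

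Orc1, the subunit with the cell cycle-regulated level, was not called before 24 h. It then fell to 50.3, 55.0 and 40.2 CPM from 71.9, 73.1 and 73.2 at 0 h (log2 fold change -0.58 ± 0.09 SE, adjusted p = 4.03e-05) and from 74.4, 75.1 and 81.7 at 8 h. Orc3 and Orc5 were called lower at 24 h (-0.34 ± 0.08 and -0.46 ± 0.10), and both calls were lost by library totals and by upper-quartile factors. Orc4 was not called at any time and its libraries overlapped those of 0 h at 4, 8 and 24 h.

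The loading factors parted after 2 h. Cdt1, which brings the MCM ring to origins, stood at 122, 122 and 122 CPM in the 0 h libraries and 159, 161 and 149 in the 2 h libraries (log2 fold change 0.36 ± 0.09 SE, adjusted p = 0.0102), then fell to 113, 97.05 and 101 at 4 h (4 h against 2 h: log2 fold change -0.59 ± 0.09 SE, adjusted p = 0.000161). It was below 0 h at 8 h (-0.44 ± 0.09) and 24 h (-0.42 ± 0.09), calls that were lost by library totals. Geminin (Gmnn), which binds and blocks Cdt1, stood at 80.8, 87.4 and 83.6 CPM in the 0 h libraries and 126, 134 and 146 in the 4 h libraries (log2 fold change 0.69 ± 0.13 SE, adjusted p = 0.000367). At 24 h its libraries were at 129, 133 and 85.4 CPM, and replicate 3 alone was near 0 h. Cdc6, the ATPase that helps load the ring, was higher at every time, from 144, 149 and 144 CPM at 0 h to 209, 212 and 198 at 2 h (log2 fold change 0.50 ± 0.05 SE, adjusted p = 7.21e-06) and 172, 176 and 169 at 24 h (0.24 ± 0.05).

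Among the genes that activate the helicase, Cdc45 had the largest rise at 4 h. The level was 104, 108 and 106 CPM in the 0 h libraries, 162, 150.0 and 149 in those of 2 h, 195, 198 and 202 in those of 4 h, 154, 152 and 153 in those of 8 h and 171, 168 and 143 in those of 24 h. All later libraries lay above all 0 h libraries (log2 fold change 0.90 ± 0.07 SE, adjusted p = 2.43e-08), and the level at 8 h was below that at 4 h (log2 fold change -0.38 ± 0.07 SE, adjusted p = 0.000821). Cdc7, the kinase that phosphorylates the MCM ring, was not called at 2 h and was higher at 4, 8 and 24 h, reaching 113, 110.0 and 107 CPM at 24 h from 68.4, 66.2 and 72.0 at 0 h (log2 fold change 0.67 ± 0.07 SE, adjusted p = 2.84e-07). Its activator Dbf4 was not called at any time (-0.05 ± 0.06 at 24 h), and by library totals it was called higher at 24 h. Shorter stretches are shared with genes on the other strand by Cdc45 (209 bases with Ufd1), by Orc6 (171 bases with Vps35) and by Rfc4 (194 bases with Eif4a2). At 4 h and 24 h the log2 fold changes of these neighbours were 0.42 and 0.57 for Ufd1, 0.50 and -0.04 for Vps35, and -0.16 and 0.52 for Eif4a2.

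Mcm10, a fork protein that joins the active helicase, fell between 2 h and 4 h. It stood at 206, 191 and 197 CPM in the 2 h libraries, 145, 141 and 138 in the 4 h ones (log2 fold change -0.48 ± 0.05 SE, adjusted p = 6.73e-06) and 133, 136 and 127 at 24 h, against 184, 181 and 188 at 0 h (log2 fold change -0.48 ± 0.05 SE, adjusted p = 1.21e-06). Of the 4 GINS subunits only Gins3 was called against 0 h, at all 4 times, from 25.5, 27.5 and 28.4 CPM to 44.5, 44.7 and 39.6 at 24 h (log2 fold change 0.66 ± 0.07 SE, adjusted p = 9.18e-07). Gins1, Gins2 and Gins4 had log2 fold changes of 0.29, 0.22 and 0.35 at 4 h, none of which passed. Their 4 h libraries nevertheless all lay above those of 0 h, so the split at 4 h rests on the threshold. With upper-quartile factors, 7 of the 8 helicase activation genes, these included, were called higher at 4 h and 1, Mcm10, lower. By library totals 5 were higher and 1 lower. The median log2 fold change of all genes at 4 h was 0.18 with upper-quartile factors and 0.12 by library totals, against 0.08 in the main fit. The shares of all genes called under these scalings are not given, so these counts only describe the 8. Gins2 shares 2758 exonic bases with Gse1 on the other strand.

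The largest fall of all 49 genes was in a polymerase subunit. Pold2 (chr11:5872180-5878292, GRCm38), the accessory subunit of polymerase delta, was at 304, 300.4 and 286 CPM in the 0 h libraries. The 2 h libraries held 247, 244 and 226 CPM, the 4 h libraries 171, 140.3 and 148, the 8 h libraries 94.4, 88.7 and 86.6 and the 24 h libraries 141, 141 and 129. Each time to 8 h was lower than the one before, with no overlap of libraries, and the 24 h libraries lay above the 8 h ones and below the 4 h mean. At 8 h the level was 30.3% of 0 h (log2 fold change -1.72 ± 0.08 SE, adjusted p = 2.95e-11), and the later rise was also called (24 h against 8 h: log2 fold change 0.61 ± 0.08 SE, adjusted p = 1.22e-05). The catalytic subunit Pold1 fell by less, to 142, 129.9 and 126 CPM at 8 h from 208, 199.8 and 193 (log2 fold change -0.59 ± 0.09 SE, adjusted p = 2.03e-05). Pold3, another accessory subunit, was higher, at 185, 194 and 192 CPM at 4 h against 137, 142 and 145 (log2 fold change 0.43 ± 0.06 SE, adjusted p = 1.8e-05).

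The polymerase alpha and primase complex, which lays the RNA-DNA primer, was also split. Pola2, its regulatory subunit, stood at 235, 231 and 226 CPM in the 0 h libraries, 186, 178 and 172 in the 4 h ones and 141, 138 and 137 in the 8 h ones (log2 fold change -0.74 ± 0.06 SE, adjusted p = 2.25e-08), and stayed low at 24 h. The catalytic subunit Pola1 was lower at 8 h only (log2 fold change -0.42 ± 0.06 SE, adjusted p = 2.32e-05) and its 24 h libraries overlapped those of 0 h, a time at which library totals called it higher. Prim1, the catalytic primase subunit, was higher from 4 h on, at 202, 226 and 252 CPM at 4 h against 135, 144 and 148 (log2 fold change 0.67 ± 0.12 SE, adjusted p = 0.000285). Prim2 was called higher at 4 h and 8 h (0.55 ± 0.11 at 8 h) and not at 24 h.

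For polymerase epsilon, Pole2 was higher at 4 h (log2 fold change 0.59 ± 0.11 SE, adjusted p = 0.000404). Its catalytic subunit Pole was not called against 0 h at any time. At 24 h Pole stood at 148, 148 and 261 CPM against 151, 143 and 131 at 0 h, so the 24 h mean rests on replicate 3, without which the log2 fold change was 0.06 in place of 0.39.

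**Figure D3:**
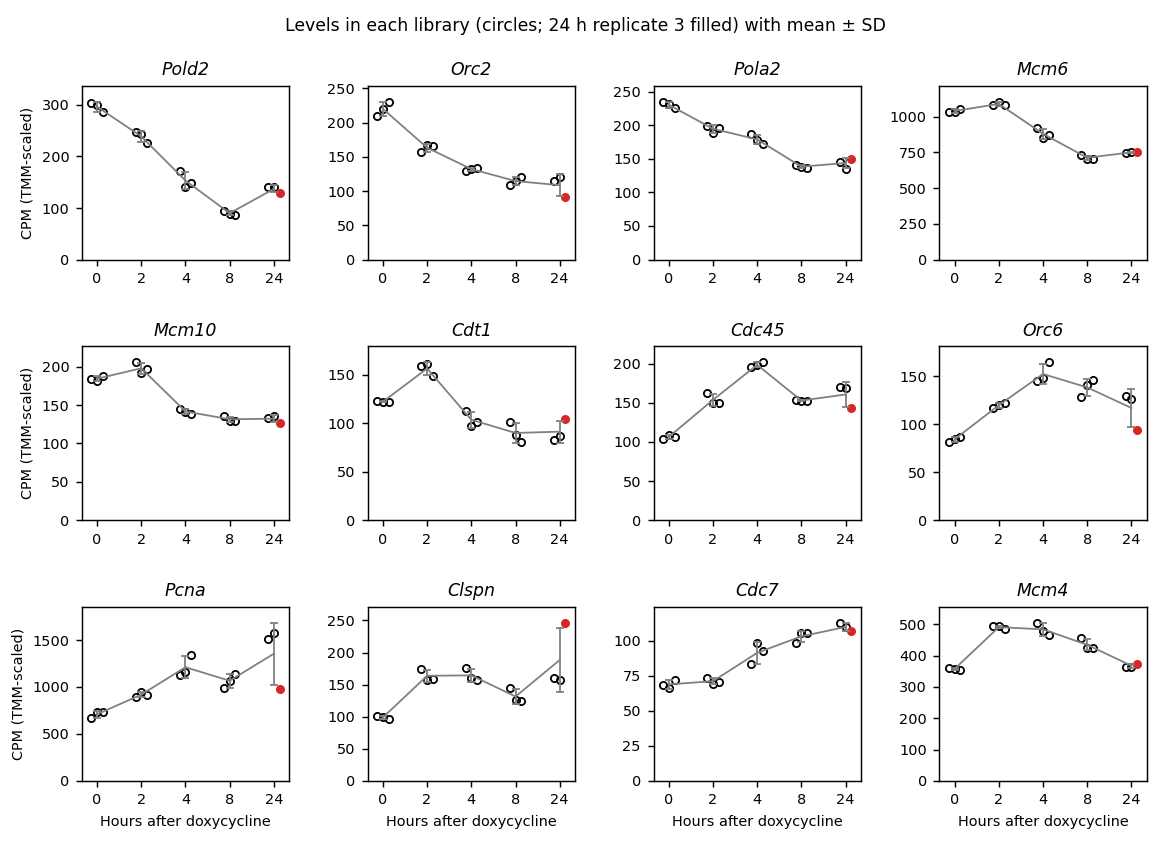
CPM (TMM-scaled) of 12 genes by hours after doxycycline (times evenly spaced, not to scale), with a circle for each library, replicate 3 at 24 h filled red, and lines joining the means with SD bars (n = 3). Pold2, Orc2, Pola2, Mcm6 and Mcm10 lie below 0 h from 4 h on, Cdc45, Orc6, Pcna and Clspn lie above it from 2 h on, and Mcm4 is close to its 0 h level at 24 h.

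Pcna, the clamp that holds polymerases on DNA, was the most abundant of the group on a length-corrected scale at 0 h (774 TPM). It stood at 664, 732 and 732 CPM in the 0 h libraries, 1123, 1163 and 1343 in the 4 h ones and 1513, 1574 and 976 in the 24 h ones. Replicates 1 and 2 at 24 h were the highest of the 15 libraries, while replicate 3 lay between the 2 h and the 8 h libraries, and the rise was called (log2 fold change 0.93 ± 0.14 SE, adjusted p = 1.74e-05; 1.12 without replicate 3). The processed copy Pcna-ps2 had 88 to 342 counts against 17014 to 46584 for Pcna.

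Of the 5 clamp loader subunits, Rfc3 and Rfc4 were higher at 4, 8 and 24 h. The 24 h call of Rfc4 did not hold under every alternative. Its 24 h libraries were at 118.6, 119.0 and 80.7 CPM, the last in replicate 3. Rfc3 stood at 71.6, 77.7 and 78.0 CPM in the 0 h libraries and 132, 136 and 148 in the 4 h libraries (log2 fold change 0.87 ± 0.13 SE, adjusted p = 3.04e-05), and Rfc4 at 73.8, 78.6 and 77.8 and 112, 128 and 138 CPM at 0 and 8 h (log2 fold change 0.72 ± 0.12 SE, adjusted p = 9.61e-05). Rfc2 fell between 8 h and 24 h, to 109, 108 and 97.8 CPM from 144, 132 and 144 (log2 fold change -0.41 ± 0.06 SE, adjusted p = 6.67e-05). Rfc5 was called lower at 24 h (-0.29 ± 0.08), a call lost by both other scalings named above, and Rfc1, the large subunit, was not called. At 4 h, though, all 6 clamp and loader genes had every library above those of 0 h. The share of all tested genes for which this held is not given here. In the main fit 4 of the 6 were called higher at 4 h, against 18.1% of all tested genes. All 6 were with upper-quartile factors, and all 6 without replicate 3 of 24 h, settings for which the shares of all genes are not given.

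The single-strand binding protein RPA has 3 subunits and each had its own course. Rpa3, the smallest, stood at 77.0, 86.2 and 90.8 CPM in the 0 h libraries and 145, 159 and 174 in the 8 h libraries (log2 fold change 0.91 ± 0.15 SE, adjusted p = 0.000106), and at 139, 148 and 87.3 at 24 h, where replicate 3 fell within the 0 h range. Rpa1, the largest, was near 694 ± 10.8 CPM at 8 h and 483 ± 64.2 at 24 h (24 h against 8 h: log2 fold change -0.52 ± 0.08 SE, adjusted p = 8.91e-05); its calls at 4 h and 8 h against 0 h (0.30 ± 0.08 and 0.27 ± 0.08) were lost under more than 10 of the 25 alternatives. Rpa2 was not called against 0 h.

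Lig1, the ligase that seals lagging strand pieces, stood at 406, 411 and 419 CPM in the 0 h libraries and 602, 581 and 594 in the 4 h libraries (log2 fold change 0.52 ± 0.06 SE, adjusted p = 1.24e-06), and all its later libraries lay above 0 h. The flap nuclease Fen1 was called higher at 2 h and 4 h (0.30 ± 0.07 and 0.30 ± 0.07). It shares 1909 exonic bases with Gm10143 on the other strand, whose log2 fold change at 4 h was 0.30.

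Claspin (Clspn), which links the fork to checkpoint signaling, had the largest rise of the 49 genes at 2 h. It stood at 101, 99.0 and 96.3 CPM in the 0 h libraries and 174, 158 and 159 in the 2 h libraries (log2 fold change 0.73 ± 0.13 SE, adjusted p = 0.000801). At 24 h it stood at 161, 158 and 246 CPM (log2 fold change 0.93 ± 0.13 SE, adjusted p = 1.36e-05), or 0.69 without replicate 3, the highest library. Timeless, a partner in fork protection, was called higher at 2 h only (0.41 ± 0.10), and Tipin and Wdhd1 were not called. Both chromatin assembly subunits, which place histones behind the fork, were called higher at 2 h and 24 h. The 24 h log2 fold changes were 0.44 ± 0.10 for Chaf1a and 0.31 ± 0.06 for Chaf1b. For neither subunit did the call at 2 h or at 24 h hold under every alternative. Chaf1b was also called higher at 4 h, and that call did hold under every alternative. At 24 h Chaf1a stood at 117.2, 113.1 and 145.5 CPM, the last in replicate 3, against 96.57, 91.29 and 88.39 at 0 h. Without replicate 3 at 24 h, both subunits were still called higher at that time. In GENCODE M21, Chaf1a shares 4648 exonic bases with Ubxn6 on the other strand, which had a log2 fold change of 0.21 at 24 h. The Chaf1a model in the count files has only 3308 bases, so not all of the shared bases can have been counted for it.

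Because several complexes held genes that rose and genes that fell, count ratios were taken within each library, which no scaling changes. The ratio of Pold2 to Pold3 went from 2.10 ± 0.123 at 0 h to 0.551 ± 0.0354 at 8 h, and that of Orc2 to Orc6 from 2.61 ± 0.0431 to 0.828 ± 0.0171. Pola2 over Prim1 went from 1.62 ± 0.112 to 0.662 ± 0.0762, and Mcm6 over Mcm5 from 2.12 ± 0.0350 to 1.23 ± 0.00883. Cdt1 over its inhibitor Gmnn overlapped between the 0 h and 2 h libraries (1.46 ± 0.0604 and 1.44 ± 0.0260) and was lower at 4 h (0.769 ± 0.113). At 24 h the Cdt1 to Gmnn ratio was 0.644, 0.649 and 1.22 in the 3 libraries, the last in replicate 3. Cdc7 over Dbf4 went up, from 0.480, 0.465 and 0.484 in the 0 h libraries to 0.790 ± 0.0527 at 24 h. In each of these pairs the libraries of the 2 times named did not overlap, except for Cdt1 over Gmnn at 2 h. The pairs were chosen after their members' values were known, so their ratios are a description.

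**Figure D4:**
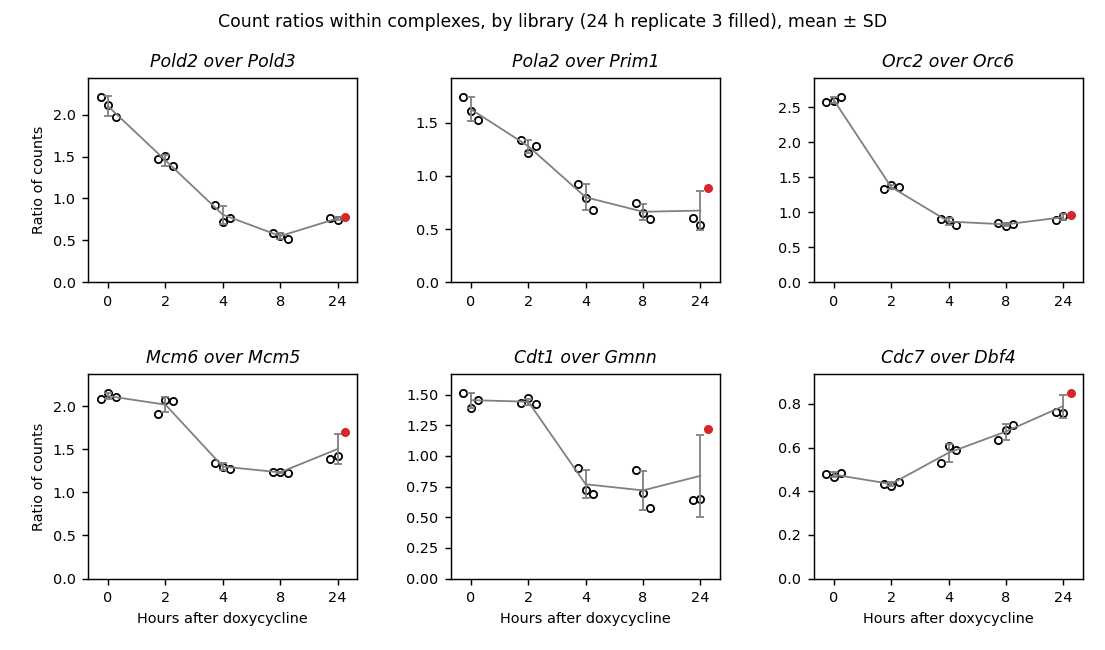
Ratio of counts of 2 genes of a complex or pathway step in each library (circles, replicate 3 at 24 h filled red) by hours after doxycycline (times evenly spaced), with mean and SD (n = 3). Pold2 over Pold3, Pola2 over Prim1, Orc2 over Orc6 and Mcm6 over Mcm5 fall by 4 h and stay low, and Cdc7 over Dbf4 rises to 0.790 at 24 h.

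Between neighbouring times the calls were fewer. From 2 h to 4 h, 9 genes were higher and 5 lower, against 7.72% and 13% of all genes, and the 5 that fell, Mcm6, Cdc6, Cdt1, Mcm10 and Pold2, were called under every alternative. None of the 9 higher calls remained when replicate 3 of 2 h or of 4 h was left out. From 4 h to 8 h no gene was called higher by edgeR (3 at an unadjusted p under 0.05, 1 by DESeq2) and 7 were lower, against 5.73% and 6.97% of all genes; by library totals the counts were 2 and 4, and by upper-quartile factors 1 and 5. Those 7 were Mcm3, Mcm6, Cdc45, Pola1, Pola2, Pold2 and Chaf1b. From 8 h to 24 h, 5 were higher and 8 lower, against 20.8% and 17.3%, and by library totals 15 and 3. The 5 that were higher were Pola1, Pold2, Pole, Clspn and Chaf1b, of which only Pold2 was called under every alternative.

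**Figure D5:**
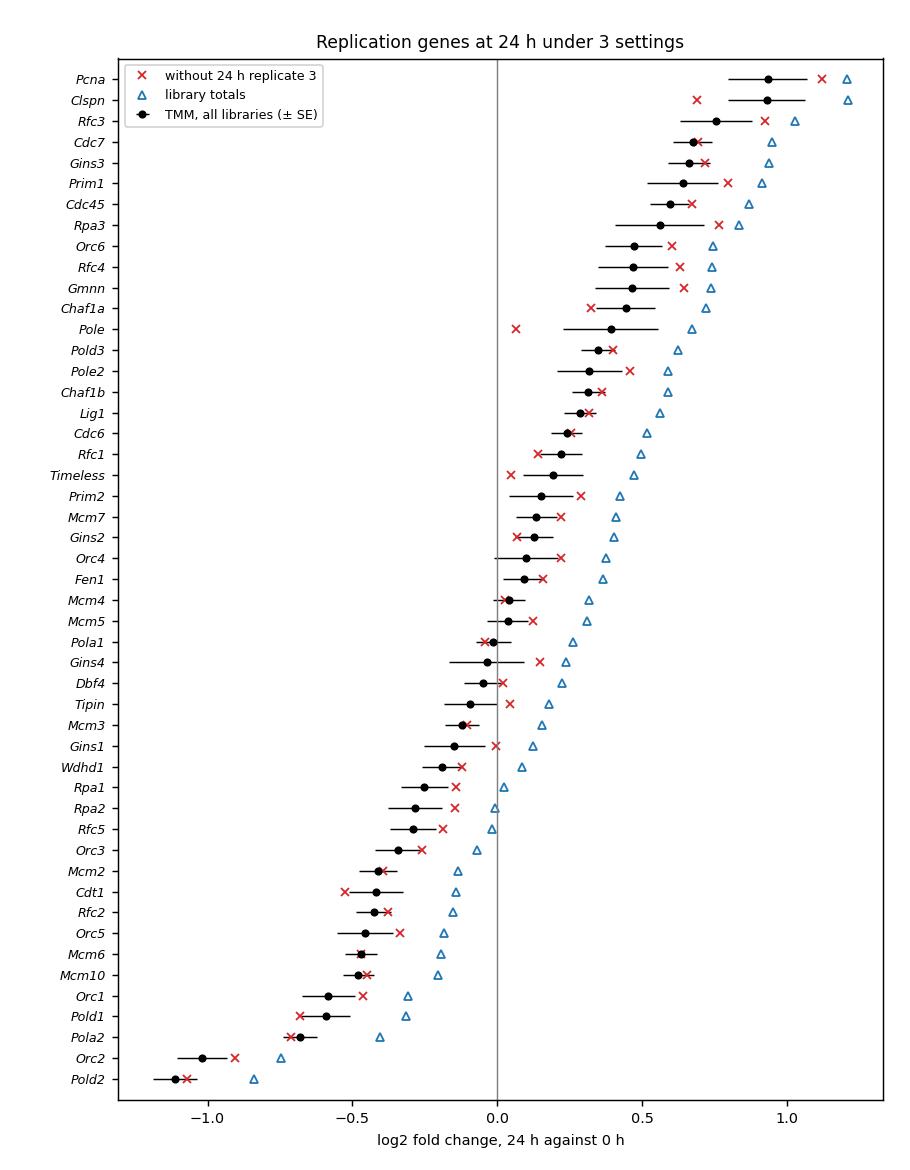
Log2 fold change of each of the 49 genes at 24 h against 0 h, sorted, as fitted with TMM and all libraries (black, with SE), without replicate 3 at 24 h (red crosses) and with library totals (blue triangles). Library totals move every gene to the right, and the genes at either end, Pold2 and Orc2 on the left, Pcna and Clspn on the right, keep their side of 0.

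Other genes of the pathway are given for context by their counts at 24 h, when 30.7% of all genes tested were called higher and 28.1% lower (median log2 fold change 0.07). Of 29 other replication genes, 12 were called higher and 7 lower at 24 h (median log2 fold change -0.03), led by Fbxo5, an inhibitor of the anaphase-promoting complex (1.21 ± 0.06), and Asf1b, a histone chaperone, at 159.6 CPM against 71.6 at 0 h. Of 9 genes of dNTP supply, 4 were higher and 1 lower, Samhd1, at 24 h (median 0.10), and Rrm2, the small subunit of ribonucleotide reductase, went from 524 CPM at 0 h to 1661 at 24 h (1.67 ± 0.08). Of 10 replication checkpoint genes, 2 were higher and 6 lower at 24 h (median -0.38), among them Rad1 (-0.99 ± 0.08) and Hus1 (-0.80 ± 0.08), which form a checkpoint clamp with Rad9a. Rad9a was called higher (0.34 ± 0.10), a call lost under 18 of the 25 alternatives. Of 17 E2F and S phase cyclin genes, 11 were higher and 4 lower at 24 h (median 0.48), with E2f8 (1.52 ± 0.14) and E2f2 (1.49 ± 0.11) at the top. Of 17 mitosis genes, 10 were higher and none lower at 24 h (median 0.43), with Mki67, a marker of cycling cells, at 1215 CPM against 372 at 0 h (1.71 ± 0.21). In the same order, the counts of higher and lower calls without replicate 3 at 24 h were 12 and 7, 5 and 1, 2 and 6, 12 and 5, and 12 and 0. By library totals they were 14 and 3, 6 and 1, 2 and 2, 12 and 3, and 14 and 0, and 4 of the 6 lower checkpoint calls were thus lost. With upper-quartile factors they were 13 and 5, 4 and 1, 2 and 4, 12 and 3, and 13 and 0. No difference between these lists and the 49 genes was tested.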

How the data were processed

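The authors deposited raw counts, TPM and other per-length units for every gene, in a file per library. Named in the submitters' notes are mm10, cutadapt 1.16, STAR 2.5.4b and featureCounts; no annotation release or strand setting is given in the sources used here. Counts per library were 25852711 to 27102318, and precision rests on 3 libraries per time. The authors' TPM (deposited) served for levels between genes and as an alternative scale. Of 53379 mouse gene IDs, 53274 matched GENCODE M21 (GRCm38) without version numbers. The test was edgeR 4.0.16 (R 4.3.3): filterByExpr on the 5 groups (14485 genes), TMM, glmQLFit over 15 libraries without a replicate block, and Benjamini-Hochberg adjusted p under 0.01. SE was the fold change over the square root of F. Any of the 49 genes could be named; other lists by their largest changes that passed. Alternatives were other scalings, filters, thresholds, fits and left-out libraries, and DESeq2 1.42.0. The fits were tested on simulated data. Genes and lists were chosen with earlier results of these data known. Promoters came from RefSeq (GRCm38.p6).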

Additional observations from a re-analysis of the deposited data

How the results depend on the processing

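Of 8575 alternative log2 fold changes of single genes, 7844 kept their side of the threshold, 399 lost a call and 330 gained one. The other 2 were Dbf4 (0.22) and Pola1 (0.26) at 24 h by library totals. Neither was called in the main fit, and both were called here with the opposite sign. Among the 7844 are 4943 values called in neither fit, of which 228 differed in sign. By the authors' TPM, the 24 h level of Orc3 was 100.1% and that of Rfc5 103.7% of 0 h. Counts of genes called higher and lower that moved by over 1.5 times are as follows, and the cause was not tested. At 2 h, RLE factors gave 8 higher, a fit of only the times compared 24 higher, and library totals 1 lower. At 4 h, the fit of the compared times gave 10 lower. At 24 h, library totals gave 29 higher and 7 lower, and the compared times 7 higher. From 2 h to 4 h, adjusted p under 0.05 gave 16 higher, the compared times 20 higher and 10 lower, and DESeq2 14 higher. From 4 h to 8 h, against 0 higher and 7 lower, adjusted p under 0.05 gave 2 and 13, library totals 2 and 4, upper-quartile factors 1 higher, at least 10 counts in every library 1 higher, the compared times 1 higher, and DESeq2 1 and 12. From 8 h to 24 h, adjusted p under 0.05 gave 8 higher, library totals 15 and 3, and the compared times 1 and 3. Leaving out a library gave 6 to 22 higher and 0 to 3 lower (2 h), 16 to 32 higher and 5 to 9 lower (4 h), 11 to 20 higher and 8 to 12 lower (8 h), 13 to 19 higher and 12 to 15 lower (24 h), 0 to 19 and 5 to 10 from 2 h to 4 h, 0 to 2 and 4 to 18 from 4 h to 8 h, and 3 to 10 and 4 to 8 from 8 h to 24 h. The most higher calls in each comparison came without replicate 3 of 24 h, as did 10 lower from 2 h to 4 h and 18 lower from 4 h to 8 h. The fewest came without any 0 h or 2 h library at 2 h (1 lower also without 8 h replicate 2), without 8 h replicate 3 at 8 h, without any 2 h, 4 h or 8 h library from 2 h to 4 h (0 to 5 higher), without 8 h replicate 2 from 4 h to 8 h, and, from 8 h to 24 h, without 8 h replicates 1, 2 or 3, 2 h replicate 3 or 4 h replicate 2. With the replicate number as a block, the calls were 12 higher and 3 lower (2 h), 19 and 6 (4 h), 14 and 8 (8 h), 16 and 13 (24 h), and 5 and 5 (24 h against 8 h). Deviations from the group mean correlated with r of -0.599 to 0.541 (median 0.041) in 30 same-numbered pairs of libraries. In 60 other pairs r was -0.484 to 0.548 (median -0.0243). With 3 libraries per time this cannot decide whether the numbers pair the samples, and the labels do not say.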
